A study of Mus musculus with 3 samples.

Results

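The 10 genes described here encode chemokines that cells of the muscle lineage can make. They are Ccl2, Ccl5, Ccl7, Ccl8, Cxcl1, Cxcl5, Cxcl10, Cxcl12, Cxcl16 and Cx3cl1, and they were taken by their symbols from the 23238 symbols in the deposited counts. All 10 were listed with counts in every library, and 9 of them passed the filter on low values, which 13169 of all genes passed. c2c12, the immortalized mouse myoblast line from which the RNA was taken, had spent 2 days in induction medium with horse serum. The cells had been seeded on tissue culture plates (TCP), on hydrogels of 15% w/v methacrylated gelatin (GelMA), or on hydrogels of 15% w/v GelMA polymerized with 1% w/v poly(sodium-4-styrenesulfonate), a sulfonated polymer that mimics heparin (GelMA-PSS). Each substrate has 1 library, so that no difference has a replicate check, no p-value was computed, and all intervals cover counting error only.

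Chemokines are small secreted proteins that direct the migration of leukocytes and of other cells along gradients. They are sorted into families by the spacing of the first cysteines of the mature protein, which are adjacent in CC chemokines, separated by 1 residue in CXC chemokines and by 3 residues in CX3CL1. They signal through receptors with a G protein, and most of them bind heparan sulfate, the sulfated sugar chains of the cell surface and matrix that heparin resembles. In injured muscle, chemokines draw neutrophils and monocytes to the site of damage, and myoblasts themselves are known to secrete several of them.

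The coding bases around these cysteines were read from the transcripts of GENCODE vM21 (GRCm38, the same assembly as mm10) and show the family of each gene. Capitals mark the pair of cysteine codons and the codons between them, and in each gene the capitals lie in exon 2.

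Ccl2: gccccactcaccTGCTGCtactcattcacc
Ccl7: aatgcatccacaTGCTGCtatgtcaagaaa
Ccl8: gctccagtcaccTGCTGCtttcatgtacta
Ccl5: gacaccactcccTGCTGCtttgcctacctc
Cxcl1: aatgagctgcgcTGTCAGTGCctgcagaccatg
Cxcl5: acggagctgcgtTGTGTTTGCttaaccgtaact
Cxcl10: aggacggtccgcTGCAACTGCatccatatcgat
Cxcl12: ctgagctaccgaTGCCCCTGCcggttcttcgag
Cxcl16: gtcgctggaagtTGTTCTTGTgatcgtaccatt
Cx3cl1: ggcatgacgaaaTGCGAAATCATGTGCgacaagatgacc

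The adjacent codons of the CC genes lie on chromosome 11, at 82036506 to 82036511 in Ccl2, 82046538 to 82046543 in Ccl7, 82116056 to 82116061 in Ccl8 and 83529242 to 83529247 on the minus strand in Ccl5. Those of the CXC genes lie on chromosome 5 at 90891496 to 90891504 in Cxcl1, 90759727 to 90759735 in Cxcl5 and, on the minus strand, 92348181 to 92348189 in Cxcl10. In Cxcl12 they lie on chromosome 6 at 117171508 to 117171516, in Cxcl16 on the minus strand of chromosome 11 at 70459127 to 70459135, and in Cx3cl1 on chromosome 8 at 94778051 to 94778065.

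The libraries held 119799095 counts on TCP, 87071144 on GelMA and 192171443 on GelMA-PSS. Levels are given as CPM, the count relative to the size of its library, scaled with TMM factors. A count of 3, taken as the floor of detection, corresponds to 0.0246, 0.0330 and 0.0166 CPM in the same order. Log2 ratios are differences of log2(CPM + 1), a scale that compresses differences of genes with low counts, and a gene was called when it passed 2-fold on this scale. Ratios given with an interval are ratios of CPM without the added 1. In each library more genes had a count of 2 than of 1, and the intervals are too narrow if each read of a pair was counted separately, on which the sources are silent. The muscle markers Myod1, Myog, Des and Cdh15 were present in every library, with Myog between 895 and 1100 CPM.

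The largest differences among these chemokines lay between plastic and gelatin rather than between gelatin with and without PSS. Against TCP, 5 of the 9 genes tested were called higher on GelMA, while 0.706% of all genes tested were. These were Cxcl5, Cxcl1, Ccl2, Ccl7 and Cxcl16, and 0 of the 9 were called lower, against 0.296% of all genes. Their median log2 ratio for GelMA against TCP was 1.19, beside -0.01 over all genes tested. Between GelMA-PSS and GelMA, 0 of the 9 were called in either direction (1.77% of all genes higher and 2.33% lower), with a median log2 ratio of 0.11 beside 0.03. The chemokines were chosen with earlier results of these data known, so their counts beside these shares, here and below, are descriptions and no test.

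**Figure D1:**
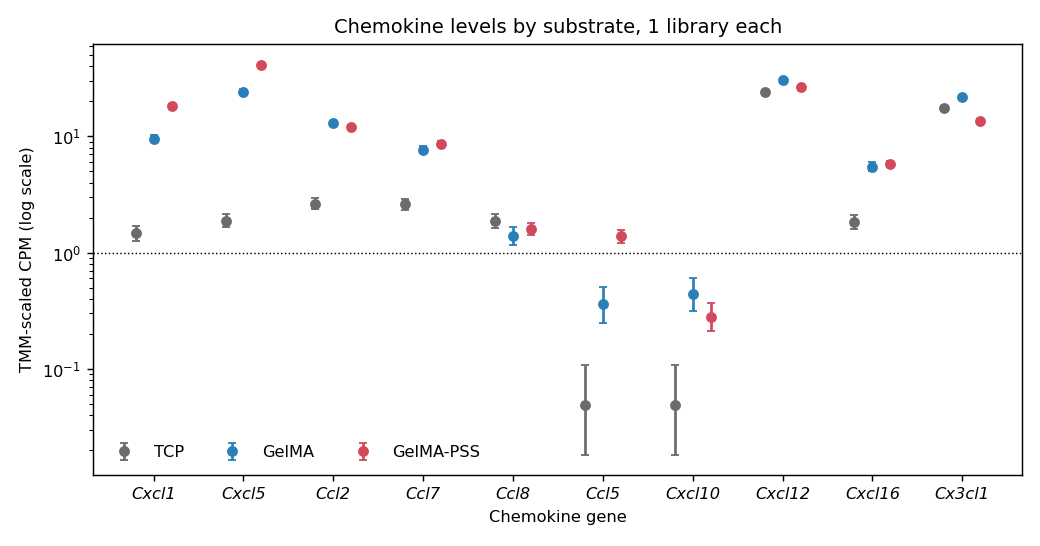
TMM-scaled CPM on a log axis for each chemokine gene in the TCP, GelMA and GelMA-PSS library, with bars for the 95% exact Poisson interval of the count and a dotted line at 1 CPM, the filter. Cxcl5, from 1.88 CPM on TCP to 41.2 on GelMA-PSS, and Cxcl1, from 1.47 to 18.2, span the widest range above the filter, whereas Cxcl12 stays between 24.2 and 30.7.

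Cxcl5 and Cxcl1 encode ligands of the receptor Cxcr2 that attract neutrophils. Cxcl5 had 229 counts on TCP, 2202 on GelMA and 7470 on GelMA-PSS, or 1.88, 24.2 and 41.2 CPM. The ratio of GelMA to TCP was 12.9 (95% interval from 11.2 to 14.8), and the log2 ratio of 3.13 was the second highest of the 13169 genes tested. For GelMA-PSS against GelMA the ratio was 1.70 (from 1.62 to 1.79), and its log2 ratio of 0.74 was 0.24 after a correction for transcript length and GC content. Cxcl5 was thus ordered GelMA-PSS above GelMA above TCP, with the wider gap between GelMA and TCP.

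Cxcl1 followed the same order, with 179, 869 and 3300 counts on TCP, GelMA and GelMA-PSS, or 1.47, 9.56 and 18.2 CPM. Its level was 6.51-fold higher on GelMA than on TCP (from 5.53 to 7.68) and 1.90-fold higher on GelMA-PSS than on GelMA (from 1.77 to 2.06). The log2 ratio between GelMA and TCP, 2.10, ranked 7 among all genes tested. The upper end of the interval for GelMA-PSS against GelMA lies past 2-fold, but the log2 ratio of 0.86 did not reach the threshold and was 0.24 once transcript length and GC content were corrected for.

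Ccl2 and Ccl7 encode monocyte attractants that signal through Ccr2, and their genes are direct neighbours on chromosome 11. Ccl2 had 2.64 CPM on TCP, 12.9 on GelMA and 11.98 on GelMA-PSS (321, 1172 and 2171 counts). Ccl2 was 4.89-fold higher on GelMA than on TCP (from 4.32 to 5.55), the gene with rank 9 of those tested, and its ratio of GelMA-PSS to GelMA was 0.929 (from 0.865 to 0.999, or from 0.840 to 1.03 if each fragment was counted as 2 reads). Ccl7 had 2.61, 7.68 and 8.65 CPM on TCP, GelMA and GelMA-PSS (318, 698 and 1566 counts), which is 2.94-fold higher on GelMA than on TCP (from 2.57 to 3.37). Its ratio of GelMA-PSS to GelMA was 1.13 (from 1.03 to 1.23, or from 0.991 to 1.28 if each fragment was counted as 2 reads). Both hydrogels lay above plastic for either gene. Their order relative to each other depends on the correction for transcript length described later, with which the log2 ratio of GelMA-PSS against GelMA went from -0.10 to -0.79 for Ccl2 and from 0.15 to -0.55 for Ccl7, and Ccl7 was no longer called against TCP on GelMA-PSS (0.82).

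Cxcl16, made as a membrane protein that can be shed and that binds Cxcr6, had the same profile at a lower level. It had 223 counts on TCP, 496 on GelMA and 1049 on GelMA-PSS, or 1.83, 5.46 and 5.79 CPM. The ratio was 2.98 for GelMA against TCP (from 2.54 to 3.51) and 1.06 for GelMA-PSS against GelMA, with an interval from 0.953 to 1.18 that includes no difference. Zmynd15 overlaps Cxcl16 on the opposite strand, 452 of the 2599 windows of the read length in the Cxcl16 transcript also occur in it, and it had 33, 120 and 173 counts in the same order. Whether the counting used the strand is not stated, so reads of these genes may not be told apart.

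Ccl8, another monocyte attractant of the CC family, was not higher on the hydrogels. Its counts were 228 on TCP, 127 on GelMA and 289 on GelMA-PSS, or 1.87, 1.40 and 1.60 CPM. The ratio of GelMA to TCP was 0.746 (from 0.596 to 0.931, or from 0.545 to 1.03 if each fragment was counted as 2 reads). That of GelMA-PSS to TCP was 0.852 (from 0.714 to 1.02). Ccl8 is the only member of the group with a log2 ratio below 0 for GelMA against TCP (-0.26).

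Ccl5 and Cxcl10, which attract T cells and are known targets of interferon and NF-kB signaling, were the scarcest of the 10. Ccl5 had 6 counts on TCP, 33 on GelMA and 249 on GelMA-PSS, or 0.0493, 0.363 and 1.38 CPM, so that it passed the filter only through GelMA-PSS. The ratio was 7.37 for GelMA against TCP (from 3.05 to 21.5) and 3.79 for GelMA-PSS against GelMA (from 2.63 to 5.62). Of the 10 genes, Ccl5 had the highest ratio of GelMA-PSS to GelMA, and its ratio to TCP was 27.9 (from 12.6 to 76.7, or from 9.29 to 137 if each fragment was counted as 2 reads). Because its levels lie near or under 1 CPM, its log2 ratios with the added 1 were only 0.80 and 1.18, and 0.17 and 0.60 with the correction.

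Cxcl10 did not pass the filter and was not called in any comparison. It had 6 counts on TCP, 40 on GelMA and 51 on GelMA-PSS, or 0.0493, 0.440 and 0.282 CPM. The ratio of GelMA to TCP was 8.93 (from 3.76 to 25.8). That of GelMA-PSS to GelMA was 0.640 (from 0.415 to 0.993, or from 0.350 to 1.23 if each fragment was counted as 2 reads). Cxcl10 overlaps Art3, a gene on the opposite strand with 209, 162 and 638 counts, and 33 of the 994 windows of its transcript also occur in Art3.

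Cxcl12 and Cx3cl1 were the most abundant of the 10 on plastic in CPM and were called in no comparison. Cxcl12, the ligand of Cxcr4 and Ackr3 that guides stem and progenitor cells, had 24.2 CPM on TCP, 30.7 on GelMA and 26.5 on GelMA-PSS (2942, 2791 and 4800 counts). The ratio of GelMA-PSS to GelMA was 0.863 (from 0.823 to 0.904), and that of GelMA to TCP 1.27 (from 1.21 to 1.34). Cx3cl1, which like Cxcl16 is made as a membrane protein and is the ligand of Cx3cr1, had 17.5, 21.7 and 13.6 CPM (2131, 1970 and 2466 counts). It was the member with the lowest log2 ratio of GelMA-PSS against GelMA, -0.63, at a ratio of 0.628 (from 0.592 to 0.667), and the only member whose GelMA-PSS interval lay below both controls, with a ratio of 0.778 to TCP (from 0.734 to 0.825).

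**Figure D2:**
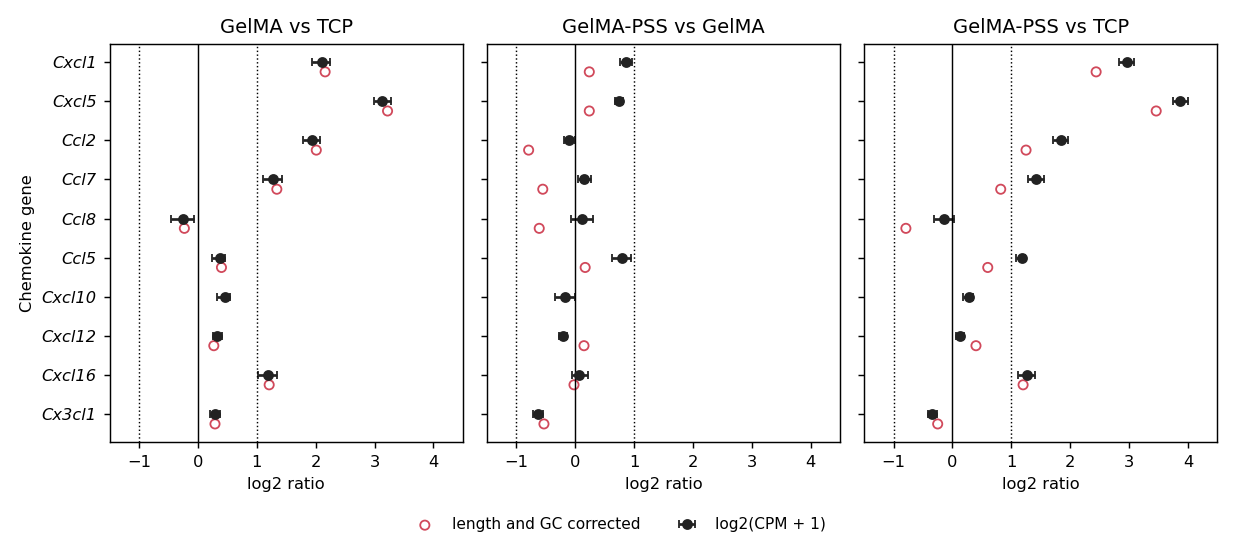
Log2 ratios of CPM + 1 for each chemokine gene in the 3 comparisons (filled points, with 95% counting intervals) and the same ratios after correction for transcript length and GC content (open circles), with dotted lines at 2-fold in both directions. For GelMA against TCP the filled and open points nearly coincide, whereas for GelMA-PSS against GelMA the open circles of the short CC genes lie lower, as for Ccl2 at -0.10 and -0.79.

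Against TCP, 6 of the 9 genes tested were called higher on GelMA-PSS (3.72% of all genes) and 0 lower (3.13%). These were Cxcl5, Cxcl1, Ccl2, Ccl7, Cxcl16 and Ccl5, with log2 ratios of 3.87, 2.96, 1.84, 1.42, 1.26 and 1.18. Ccl5 passed the filter only through GelMA-PSS, the library where it is high, so that its place in this count and in the order given below was set by that library. This comparison shares the TCP library with that of GelMA against TCP, so a high or low value on TCP enters both. Against both controls, 0 of the 9 passed 2-fold in GelMA-PSS, where 1.37% of all genes were higher and 1.16% lower. Of the 9 genes, 5 (Cxcl5, Cxcl1, Ccl5, Ccl7 and Cxcl16) were ordered GelMA-PSS above GelMA above TCP, an order that 22.5% of all genes tested had. For Cxcl16 the interval between the hydrogels includes no difference. At both steps 0 of the 9 passed 2-fold, as 0.0835% of all genes did. After the correction for transcript length that is described next, Ccl7 (-0.55) and Cxcl16 (-0.02) were lower on GelMA-PSS than on GelMA and left the order above. The share of all genes in that order after the correction was not computed. With the correction 0 passed 2-fold against both controls, against 0.427% of the 12660 genes with a length.

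The log2 ratio of GelMA-PSS against GelMA varied with transcript length across all genes, which bears on these short transcripts. Over 12660 genes with a length, the ratio and the length had a Spearman's rho of -0.66, and the median log2 ratio was 0.61 for transcripts of 500 to 999 bases, 0.23 for 1000 to 2999 and -0.23 for 3000 or more. For GelMA against TCP rho was 0.21 and the medians were -0.05, -0.05 and 0.04. Genes are not independent replicates, so these values are descriptions, and the part of RNA quality or library preparation in them was not tested. The transcripts of Ccl8, Ccl5, Ccl7, Ccl2 and Cxcl1 have 511, 532, 801, 813 and 953 bases, while those of Cxcl5, Cxcl16, Cx3cl1 and Cxcl12 have 1575, 2699, 3315 and 5627.

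When each log2 ratio was corrected for length and GC content, the same 5 genes were called higher on GelMA than on TCP, with corrected ratios of 3.22 for Cxcl5, 2.16 for Cxcl1, 2.01 for Ccl2, 1.34 for Ccl7 and 1.21 for Cxcl16. Against TCP, 4 genes were called higher on GelMA-PSS after the correction (Cxcl5, Cxcl1, Ccl2 and Cxcl16), with Ccl7 at 0.82 and Ccl5 at 0.60 no longer among them. Between GelMA-PSS and GelMA, Cxcl1 and Cxcl5 kept a positive ratio (0.24 and 0.24), as did Ccl5 (0.17). The corrected ratios of Ccl2, Ccl7 and Ccl8 in that comparison were -0.79, -0.55 and -0.61, where Ccl7 (0.15) and Ccl8 (0.11) had been above 0 without the correction. Cxcl12 moved from -0.21 to 0.15, Cxcl16 from 0.07 to -0.02, and Cx3cl1, with a longer transcript, stayed lower at -0.53.

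**Figure D3:**
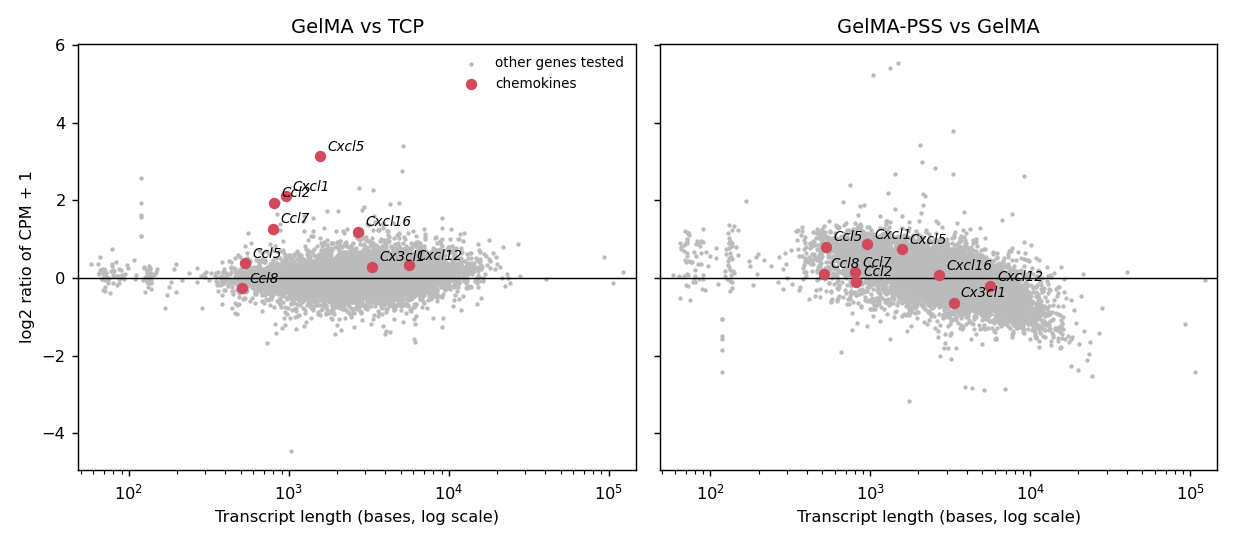
Log2 ratio of CPM + 1 against transcript length (bases, log axis) for all genes tested with a known length (grey) and the 9 chemokines tested (red, named), for GelMA against TCP and for GelMA-PSS against GelMA. In the first panel Cxcl5, at 3.13, and Cxcl1, at 2.10, stand well above the grey cloud, and in the second panel all 9 lie within it as it slopes down with length.

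To compare levels between genes, CPM was divided by the length of the transcript with the longest coding sequence. On this scale of CPM per kb, the 10 genes summed to 23.3 on TCP, 68.7 on GelMA and 87.8 on GelMA-PSS. The order of the hydrogels turned when the levels on TCP and GelMA-PSS were set from GelMA by the corrected log2 ratios, with sums of 22.7, 68.7 and 59.9. On TCP, Cx3cl1 (5.28) was followed by Cxcl12 (4.29), Ccl8 (3.66), Ccl7 (3.26) and Ccl2 (3.24), and the intervals of Ccl8 (from 3.20 to 4.17), Ccl7 (from 2.91 to 3.64) and Ccl2 (from 2.90 to 3.62) overlap. On GelMA, Ccl2 (15.9) and Cxcl5 (15.4) were the highest, with overlapping intervals, ahead of Cxcl1 (10.0) and Ccl7 (9.59). On GelMA-PSS, Cxcl5 (26.2) and Cxcl1 (19.1) led, followed by Ccl2 (14.7) and Ccl7 (10.8).

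The makeup of the summed level also differed between substrates. The neutrophil attractants Cxcl1 and Cxcl5 made up 11.7% of it on TCP, 37.0% on GelMA and 51.6% on GelMA-PSS, and Cxcl12 with Cx3cl1 made up 41.1%, 17.5% and 10.0%. The monocyte attractants Ccl2 and Ccl7 made up 27.9%, 37.0% and 29.1%. With the corrected ratios, Cxcl12 and Cx3cl1 made up 17.5% on GelMA-PSS, as on GelMA, while Cxcl1 and Cxcl5 made up 50.5% and Ccl2 and Ccl7 24.6%. These shares rest on 1 transcript per gene. Cxcl12 also has coding transcripts of 1878 and 3132 bases, and with the shortest of them its level would be 12.9, 16.4 and 14.1 CPM per kb in place of 4.29, 5.46 and 4.71.

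**Figure D4:**
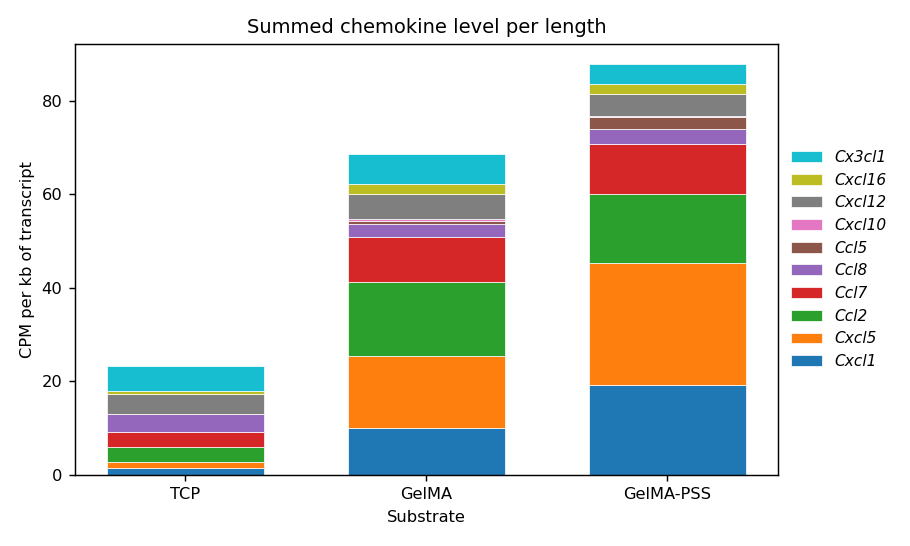
Summed level of the 10 chemokine genes in CPM per kb of transcript for each substrate without the length correction, stacked by gene, from 23.3 on TCP to 68.7 on GelMA and 87.8 on GelMA-PSS. The segments of Cxcl1 and Cxcl5 at the base of the bars make up 11.7%, 37.0% and 51.6%.

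Several of the genes lie in clusters. On chromosome 11 of GRCm38, Ccl2 (82035571 to 82037453), Ccl7 (82045712 to 82047525), Ccl11 (82057823 to 82062955), Ccl12 (82101845 to 82103400) and Ccl8 (82115185 to 82116799) follow each other on the plus strand. Ccl11, which attracts eosinophils, had 2.93 CPM on TCP, 4.30 on GelMA and 4.97 on GelMA-PSS, with a log2 ratio of 0.43 for GelMA against TCP. Ccl12 had 0 counts in all 3 libraries. None of the windows of the read length in Ccl2, Ccl7 or Ccl8 occurs in a transcript of another gene, so reads without mismatches would not be shared among these paralogs.

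On chromosome 5, Cxcl5 (90759360 to 90761624) and Cxcl1 (90891241 to 90893115) lie at either side of Ppbp, Pf4, Cxcl3 and Cxcl15, and Cxcl2 follows Cxcl1. Cxcl15 was at 1.27 CPM on TCP, 1.27 on GelMA and 0.585 on GelMA-PSS, and Ppbp had 5, 14 and 37 counts. Cxcl3 had at most 2 counts in a library, and Cxcl2, another ligand of Cxcr2, had 0 counts in all 3. Cxcl10 lies farther along on the minus strand (92346638 to 92348889), and Cxcl16 (70453983 to 70459984) and Ccl5 (83525778 to 83530518) lie elsewhere on chromosome 11.

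Of 31 other chemokine genes, 4 passed the filter, and 0 of these were called in any comparison, at shares over all genes from 0.296% to 3.72% for a direction. Besides Ccl11 and Cxcl15 they were Cxcl13, with 2.02, 3.18 and 4.81 CPM on TCP, GelMA and GelMA-PSS, and Ccl25, with 1.62, 1.09 and 2.12. The 9 chemokines of the main group that passed the filter therefore make up most of those expressed above 1 CPM in these libraries. For GelMA-PSS against GelMA the correction took the log2 ratio of Ccl11 from 0.17 to -0.45, that of Cxcl13 from 0.48 to -0.14 and that of Ccl25 from 0.58 to 0.01.

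The receptors for these ligands were mostly absent or scarce, apart from those for Cxcl12. Of 23 receptor genes, 5 passed the filter. Cxcr4, the signaling receptor for Cxcl12, had 19.9 CPM on TCP, 21.5 on GelMA and 19.1 on GelMA-PSS. Ackr3, which binds Cxcl12 and removes it from the surroundings, had 43.8, 73.7 and 123 CPM, with log2 ratios of 0.74 for GelMA against TCP, 0.73 for GelMA-PSS against GelMA and 1.47 for GelMA-PSS against TCP. Ackr3 was thus the 1 receptor of the 5 called higher on GelMA-PSS than on TCP, as were 3.72% of all genes, and the correction for length and GC content left it at 1.45.

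Cxcr2, the receptor of Cxcl1 and Cxcl5, had 2.16 CPM on TCP, 5.54 on GelMA and 4.74 on GelMA-PSS. It was the 1 receptor called higher on GelMA than on TCP, as were 0.706% of all genes, with a log2 ratio of 1.05. Cxcr6, the receptor of Cxcl16, had 2.62, 3.47 and 1.62 CPM, with a log2 ratio of -0.77 for GelMA-PSS against GelMA. With the correction this ratio was -1.13, past 2-fold. Ackr4, an atypical receptor, had 1.62, 1.32 and 1.25 CPM. Ccr2, the receptor of Ccl2 and Ccl7, had 2, 0 and 4 counts, and Ccr1, which binds Ccl5 and Ccl7, had 10, 25 and 50. Cx3cr1 had 15, 9 and 21 counts, and Cxcr3, the receptor of Cxcl10, had 0 in all 3 libraries.

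Cx3cl1 and Cxcl16 are released from the membrane by the proteases Adam10 and Adam17. Adam10 had 102, 120 and 115 CPM and Adam17 99.3, 91.7 and 85.7 on TCP, GelMA and GelMA-PSS. Of 5 genes for enzymes that shed or trim chemokines, 4 passed the filter and 0 were called in any comparison, where between 0.296% and 3.72% of all genes were called in a direction. Among them the largest log2 ratio of GelMA-PSS against the nearer control was that of Mmp14, a membrane metalloprotease that can cleave chemokines, with 310, 287 and 219 CPM.

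Since chemokines bind heparan sulfate and PSS mimics heparin, enzymes that make or edit these chains were also examined. Of 15 genes, 12 passed the filter, 0 were called between GelMA-PSS and GelMA (1.77% of all genes higher and 2.33% lower), and the median log2 ratio of the list was -0.04 beside 0.03 over all genes. The 1 gene called higher on GelMA-PSS than on TCP, as were 3.72% of all genes, was Hpse, heparanase, which cleaves heparan sulfate chains. Hpse had 2.21 CPM on TCP, 5.19 on GelMA and 8.52 on GelMA-PSS, with log2 ratios of 0.95, 0.62 and 1.57 for GelMA against TCP, GelMA-PSS against GelMA and GelMA-PSS against TCP. Ndst1, which begins the sulfation of the chains, had 69.7, 91.1 and 49.5 CPM, with -0.87 for GelMA-PSS against GelMA and -0.35 after the correction. Extl3 and Hs6st1, which start and sulfate the chains, had log2 ratios of -0.72 and -0.56 in the same comparison, or -0.26 and -0.39 with the correction. Ext1, which elongates the chains, lay in the other direction with 264, 291 and 397 CPM and a log2 ratio of 0.45 against GelMA, or 0.95 corrected. Sulf1, which removes sulfate groups from them, had 127, 182 and 190 CPM, with 0.58 against TCP, or 0.80 corrected.

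NF-kB, a transcription factor held in the cytoplasm by inhibitors such as Nfkbia, is known to drive many chemokine genes. Of 23 genes of this pathway, 21 passed the filter, 0 were called between GelMA and TCP (0.706% of all genes higher and 0.296% lower) and 0 between GelMA-PSS and GelMA (1.77% and 2.33%). The medians were 0.05 and -0.06, beside -0.01 and 0.03 over all genes. For GelMA against TCP, 13 of the 21 lay above 0, as did 48.3% of all genes. The highest log2 ratios there were those of Bcl3 (0.73), Vcam1 (0.61), Nfkbia (0.58) and Nfkbiz (0.51), and the lowest those of Nfkbib (-0.32) and Sod2 (-0.28). Nfkbia, itself a target of NF-kB, had 1336 counts on TCP, 1532 on GelMA (16.9 CPM) and 5090 on GelMA-PSS (28.1 CPM). It was the 1 gene of the 21 called higher on GelMA-PSS than on TCP (1.28, or 1.04 after the correction), as were 3.72% of all genes. Traf1, another target, had 0.813, 0.957 and 1.98 CPM. Nfkb1 had 84.7, 97.8 and 75.3 CPM, Rel 2.32, 2.42 and 1.53, and Rela, the subunit of the main activating dimer, 85.6, 88.7 and 88.0.

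The interferon response shares Ccl5 and Cxcl10 as targets. Of 34 genes, 20 passed the filter, with a median log2 ratio of 0.28 for GelMA-PSS against GelMA (0.03 over all genes tested) and 0.11 for GelMA against TCP (-0.01). In the former comparison 15 of the 20 lay above 0, as did 53.1% of all genes. In both comparisons 0 of the 20 were called, where 1.77% and 0.706% of all genes were called higher. The membrane protein gene Ifitm3 was the 1 gene called higher on GelMA-PSS than on TCP, as were 3.72% of all genes. It had 92.9, 132 and 227 CPM, though its log2 ratio of 1.28 became 0.74 after the correction. Isg15, a ubiquitin-like protein, had 0.887, 0.913 and 2.09 CPM, with a log2 ratio of 0.69 against GelMA that became 0.12. Bst2 (9.03, 11.3 and 18.2 CPM) and Gbp2 (1.90, 2.16 and 3.84 CPM) were also highest on GelMA-PSS, with log2 ratios against GelMA of 0.64 and 0.62, or 0.11 and 0.45 corrected.

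Of 15 other cytokine genes, 10 passed the filter, and 2 were called higher on GelMA-PSS than on both controls, as were 1.37% of all genes tested. These were Tslp, an alarmin of epithelial and stromal cells, with 7.52, 10.9 and 24.0 CPM, and Il33, an alarmin held in the nucleus, with 55.7, 87.6 and 176. After the correction neither passed 2-fold against GelMA, with log2 ratios of 0.43 and 0.77. Il18 had 5.63, 6.48 and 13.5 CPM, with 0.95 against GelMA, or 0.26 corrected. Lif and Csf1, growth factors for muscle cells and macrophages, were lowest on GelMA-PSS, at 7.44 and 47.1 CPM against 10.8 and 70.8 on TCP. Il6, often made together with Ccl2 and Cxcl1, had 0.485, 1.27 and 1.55 CPM, with a log2 ratio of 0.61 for GelMA against TCP. In that comparison Il15 was at -0.93 and Il1b at -0.60, and 6 of the 10 lay above 0, as did 48.3% of all genes. The median of the list was 0.13 beside -0.01, and 0 were called (0.706% of all genes higher and 0.296% lower).

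**Figure D5:**
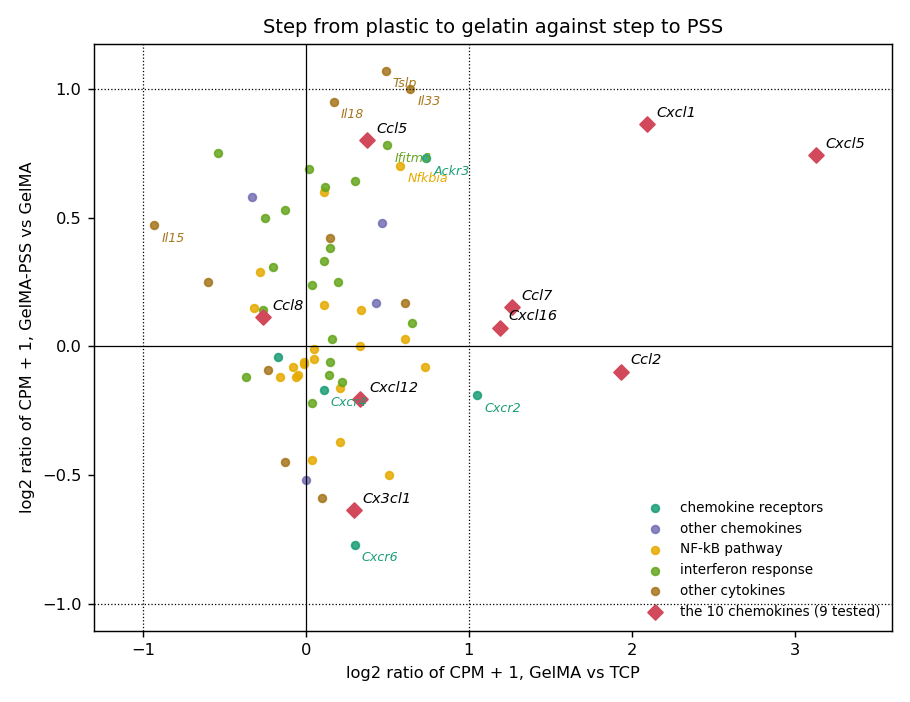
Log2 ratio of CPM + 1 for GelMA-PSS against GelMA plotted against that for GelMA against TCP, for the 9 chemokines tested (red diamonds) and the tested genes of 5 lists (coloured points, some named), with dotted lines at 2-fold. The comparisons share the GelMA library. Cxcl5, Cxcl1, Ccl2, Ccl7, Cxcl16 and the receptor Cxcr2 (1.05) lie beyond 2-fold on the horizontal axis. On the vertical axis 2-fold is passed by Tslp (1.07) and reached by Il33 (1.00).

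The upstream sequences of 5 of the 10 genes were found in RefSeq (GRCm38.p6), and the 250 bases before the start site were searched on both strands for the NF-kB consensus and for GAAANNGAAA, the core that interferon regulatory factors bind. The consensus was found in 2 of the 5, Cxcl1 and Cxcl10, and the core in Cxcl10, while Ccl8, Cxcl12 and Cx3cl1 held neither. Of 32851 promoters of the same length, 7.25% held the consensus, 2.98% the core and 0.164% both. The sequences of the genes with a match are shown with the matches in capitals, for Cxcl1 from chr5:90890995-90891244 on the plus strand and for Cxcl10 from chr5:92348890-92349139 on the minus strand. Overlapping matches form 1 run of capitals.

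Cxcl1: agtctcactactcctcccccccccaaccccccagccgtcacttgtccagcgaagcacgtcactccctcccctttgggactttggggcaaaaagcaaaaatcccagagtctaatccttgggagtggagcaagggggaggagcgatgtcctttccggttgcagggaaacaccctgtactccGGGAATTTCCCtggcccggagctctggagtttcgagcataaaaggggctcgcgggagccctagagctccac
Cxcl10: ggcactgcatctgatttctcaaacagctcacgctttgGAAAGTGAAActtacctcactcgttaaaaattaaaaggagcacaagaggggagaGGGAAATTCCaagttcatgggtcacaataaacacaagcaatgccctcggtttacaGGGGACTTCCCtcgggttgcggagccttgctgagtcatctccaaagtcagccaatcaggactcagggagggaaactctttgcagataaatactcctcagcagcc

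In Cxcl1 the match on the strand shown lies from 71 to 62 bases before the start site. In Cxcl10 the matches on the strand shown begin 159, 104 and 103 bases before it and that of the core begins 213 bases before it. Of the 5 genes searched, Cxcl1 and Cxcl10 but also Cxcl12 and Cx3cl1, which hold neither motif, had a higher CPM on GelMA than on TCP. A match describes these letters and not a site in use. Ccl2, Ccl5, Ccl7, Cxcl5 and Cxcl16 were not searched.

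Markers of cells other than myoblasts were read beside these values, since leukocytes and fibroblasts also make chemokines. The 7 macrophage markers summed to 4.94 CPM on TCP, 6.17 on GelMA and 5.88 on GelMA-PSS. Of these, Ptprc had 0, 0 and 4 counts and Adgre1 0, 1 and 0. The 3 that passed the filter differed in direction, with Cd14 at 2.12, 3.66 and 3.82 CPM, Cd68 at 1.53, 1.71 and 1.37, and Itgam at 1.03, 0.649 and 0.375. The 3 T cell markers summed to at most 0.220 CPM and the 4 endothelial markers to at most 0.905 CPM. The 4 fibroblast markers summed to 306, 449 and 1083 CPM, nearly all of it Ly6a, a surface gene that is also known from myoblasts, with 296, 431 and 1071 CPM. Dpt and Pi16 were at 0.977, 2.54 and 2.21 CPM and at 2.73, 5.24 and 2.27 CPM, and Pdgfra at 6.79, 10.0 and 7.44 CPM. For GelMA against TCP all 4 lay above 0, with a median log2 ratio of 0.64 beside -0.01 over all genes. Between GelMA-PSS and GelMA 1 of the 4 did, with a median of -0.26 beside 0.03.

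The libraries also differed in muscle genes. Myh3, the embryonic myosin heavy chain of differentiating myotubes, had 10182 CPM on TCP, 6355 on GelMA and 3037 on GelMA-PSS, and Myf5, a factor of undifferentiated myoblasts, had 13.9, 19.5 and 36.5 CPM. Ckm followed the order of Myh3 (542, 430 and 380 CPM) and Myod1 that of Myf5 (94.3, 105 and 119), whereas Myog, Des and Cdh15 were lowest on GelMA, at 895, 2863 and 610 CPM. For GelMA-PSS against GelMA the length and GC correction took the log2 ratio of Myh3 from -1.07 to -0.61 and that of Myf5 from 0.87 to 0.53. It took Myod1 from 0.19 to 0.04 and Myog from 0.21 to -0.09, below GelMA, while Des (0.19) and Cdh15 (0.27) stayed above it. The part of the differentiation state, of Ly6a and the other fibroblast markers, and of Cd14 in the chemokine levels was not tested. In bulk RNA, fewer cells that make a chemokine cannot be told apart from less of its RNA per cell.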

How the data were processed

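The RNA of c2c12 cells on TCP, GelMA and GelMA-PSS was sequenced as 101 bp strand-specific paired-end reads, 1 library for each substrate. The deposited values are raw counts by gene symbol. The submitters' processing notes name TopHat, edgeR and the builds mm10 and hg19, with no version or role. The counting tool and annotation are not given in the sources used here. The methods name a TruSeq kit and the labels a SMARTER kit. Substrates were assigned from the labels.

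The files hold 23282 lines, and lines that share 1 of 35 repeated symbols were summed. CPM was computed with TMM factors (1.02, 1.04 and 0.943 for TCP, GelMA and GelMA-PSS, edgeR 4.0.16, R 4.3.3), and genes with a CPM of at least 1 in at least 1 library were kept. Log2 ratios used a pseudocount of 1 CPM and a 2-fold threshold, and no test was possible. Intervals at 95% are exact Poisson intervals for a level and exact conditional binomial intervals for a ratio (scipy 1.17.1). Transcript lengths came from GENCODE vM21, matched by symbol for 22197 genes, with the longest coding sequence in the basic set. To correct for length and GC content, a loess curve (span 0.3, statsmodels 0.14.6) was subtracted for each property in turn. The calling step was run on simulated counts with counting noise alone. These held no trend with transcript length and no variation between cultures, so they do not show whether calls would repeat. Alternatives covered the scaling, pseudocount, filter, threshold and length correction.

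The chemokines and the lists were chosen with earlier results of these data known. All 10 chemokines are named, as are the up to 4 genes of a list with the largest log2 ratio of GelMA-PSS against the nearer control, and receptors of the 10. Other genes were named after their values were seen.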

Additional observations from a re-analysis of the deposited data

How the results depend on the processing

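The counts of chemokines past 2-fold for GelMA against TCP (5) and for GelMA-PSS against TCP (6) stayed within 1.5 times under all 9 alternatives, at 5 to 6 and 4 to 6 genes. Between GelMA-PSS and GelMA the count of 0 became 1 with a pseudocount of 0.1 or 0.5 (Ccl5), 2 with TPM in place of CPM (Ccl5 higher and Cx3cl1 lower) and 4 with a 1.5-fold threshold (Ccl5, Cxcl1 and Cxcl5 higher and Cx3cl1 lower). Against both controls the count of 0 became 1 with a pseudocount of 0.1 or 0.5 and with TPM (Ccl5), and 3 with the 1.5-fold threshold. The smaller pseudocount acts on Ccl5 because its levels lie near or under 1 CPM. No called ratio changed sign. Of the 27 ratios, 4 below the threshold changed sign with the length and GC correction, 4 with TPM and 1 with library totals alone, and none of these was in GelMA against TCP. TPM moved the median of all genes to -0.37 for GelMA-PSS against GelMA, against 0.03 with TMM factors, so that its values are to be read against that shift. With the correction, an alternative for the summed level chosen after seeing the data, the sum on GelMA-PSS was 59.9 in place of 87.8 CPM per kb, below GelMA. No replicate could be left out, since each substrate has 1 library, and depth limits Ccl5 and Cxcl10 on TCP, with 6 counts each.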
